A study of Mus musculus with 5 samples.

Results

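H3K27me3, the trimethylated form of histone H3 lysine 27, was mapped in mouse embryonic fibroblasts (MEFs) by ChIP-Seq. The 3 lines compared here were transduced with lentivirus carrying H3.3 K27R, H3.3 K27M or human EZHIP, each driven by the EF1a promoter and selected with puromycin, and all 3 derived from MEFs in which loxP sites flank part of Eed, a gene left intact in these lines. In H3.3 K27R and H3.3 K27M, the lysine is replaced by arginine or methionine, and EZHIP is a protein of posterior fossa ependymoma that inhibits the same enzyme as K27M. Each line was represented by 1 library and 1 list of enriched regions without heights or read counts, so that the depth is unknown, no comparison could be set against replicate spread, and no p-value was computed. Of the 5 libraries in the series, those of the parental control MEFs and of the clone lacking Eed were not analysed here.

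Intergenic K27R regions were chosen from the K27R list by position alone: a region on chromosomes 1 to 19, under 100 kb wide, that touched no protein-coding gene body of the GENCODE vM1 annotation (mm9). This rule took 5927 of 12845 K27R regions (46.1%), which together spanned 99.95 Mb or 17.2% of the length under the K27R list. The remaining autosomal regions under 100 kb were used for comparison: 2423 regions held a protein-coding start site, and 2433 regions overlapped a gene body without a start site. Because the K27R list chose the regions, their number, width and lack of genes are a description, and the K27M and EZHIP lists are the independent measurements.

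PRC2 is the enzyme that methylates H3K27. It is recruited mainly to unmethylated CpG islands, which are segments where the CG dinucleotide is frequent, and then spreads H3K27me3 outward through its EED subunit, which binds the mark already laid down and stimulates the enzyme. Outside genes, islands often mark the start sites of non-coding RNAs, including microRNA (miRNA) precursors.

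Examples of intergenic sequence with and without an island are given first. They were selected by island and peak, so that their CG numbers are a description and stand for neither all kept nor all lost regions. The 3 windows that follow are the most CG-rich 300 bases (CG in capitals, mm9, plus strand, 5′ to 3′) shared by the K27M and the EZHIP peak in the 3 widest intergenic regions that kept both and held an island there. They hold 41, 28 and 36 CG dinucleotides and lie between Rbms3 and Zcwpw2, between Ralgapa2 and Plk1s1, and between Cdk1 and Ank3.
chr9:117781807-117782106: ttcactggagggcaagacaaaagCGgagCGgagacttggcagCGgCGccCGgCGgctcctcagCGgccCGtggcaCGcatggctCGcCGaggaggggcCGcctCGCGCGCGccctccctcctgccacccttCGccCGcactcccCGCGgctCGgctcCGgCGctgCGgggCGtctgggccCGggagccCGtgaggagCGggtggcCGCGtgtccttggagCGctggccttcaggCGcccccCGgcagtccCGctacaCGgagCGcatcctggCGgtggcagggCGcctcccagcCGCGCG
chr2:146660231-146660530: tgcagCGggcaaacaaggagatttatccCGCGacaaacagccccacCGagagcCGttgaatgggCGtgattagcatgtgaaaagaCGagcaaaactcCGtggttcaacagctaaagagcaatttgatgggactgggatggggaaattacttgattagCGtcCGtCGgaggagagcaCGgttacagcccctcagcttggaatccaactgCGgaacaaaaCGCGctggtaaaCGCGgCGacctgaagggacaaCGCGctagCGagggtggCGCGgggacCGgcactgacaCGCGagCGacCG
chr10:68861557-68861856: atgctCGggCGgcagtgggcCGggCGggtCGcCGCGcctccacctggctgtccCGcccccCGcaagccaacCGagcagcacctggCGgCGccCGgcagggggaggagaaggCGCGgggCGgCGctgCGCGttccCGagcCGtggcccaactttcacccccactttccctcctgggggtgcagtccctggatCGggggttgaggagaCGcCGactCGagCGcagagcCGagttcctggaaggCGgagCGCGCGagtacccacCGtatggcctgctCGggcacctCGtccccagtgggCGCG
By comparison, the next windows come from wide regions where neither list had a peak. The first of them, between Sox14 and Il20rb, comes from the widest such region with an island whose sequence is single-copy, and holds 22 CG. The other comes from a 99.2 kb region without an island, between Tusc1 and 5830433M19Rik, where the richest window of the whole region holds 13 CG.
chr9:99847748-99848047: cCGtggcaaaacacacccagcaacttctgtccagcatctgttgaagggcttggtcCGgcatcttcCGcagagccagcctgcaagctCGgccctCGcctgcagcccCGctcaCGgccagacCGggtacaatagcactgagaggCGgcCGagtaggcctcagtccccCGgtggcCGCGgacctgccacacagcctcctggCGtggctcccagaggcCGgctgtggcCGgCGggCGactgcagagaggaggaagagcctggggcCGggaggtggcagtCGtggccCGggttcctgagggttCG
chr4:94046919-94047218: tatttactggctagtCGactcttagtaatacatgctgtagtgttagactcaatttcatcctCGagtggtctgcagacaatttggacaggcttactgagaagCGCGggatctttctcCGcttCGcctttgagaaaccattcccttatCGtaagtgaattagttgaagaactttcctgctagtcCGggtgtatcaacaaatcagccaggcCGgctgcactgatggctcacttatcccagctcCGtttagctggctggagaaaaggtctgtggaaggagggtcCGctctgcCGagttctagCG
Islands were thus present both in regions with residual peaks and in regions without them. The windows of 3 further wide regions without a peak were left out because their 24-base words occurred a median of 177 to 3409 times in the genome. The use of single-copy islands was chosen after the data were seen.

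Nearly all intergenic regions lacked a peak in both inhibitor lists. A region was counted as kept when it shared at least 1 bp with a peak. K27M peaks overlapped 162 of 5927 intergenic regions (2.73%, 95% exact Clopper-Pearson interval 2.33 to 3.18%), where 16.5% of all K27R regions kept one. EZHIP peaks overlapped 204 (3.44%, interval 2.99 to 3.94%), compared to 17% of all K27R regions. When regions within 5000 bp of a gene body were left out, the K27M and EZHIP shares were 2.07% (interval 1.70 to 2.49%) and 2.10% (interval 1.73 to 2.53%). Both remained in 95 (1.60%, interval 1.30 to 1.96%), against 13.1%, and 5656 regions (95.4%) had neither. These intervals and all others below cover counting error only and treat regions as independent. A missing call in a list without heights does not show that the mark was absent.

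The lists shared 95 intergenic regions, which were 58.6% of those kept in K27M and 46.6% of those kept in EZHIP. A K27M peak alone was present in 67 regions and an EZHIP peak alone in 109. Where both were present, a K27M peak and an EZHIP peak overlapped each other by at least 1 bp in 93 of the 95 regions. EZHIP peaks that stood alone were short, with a median of 2.6 kb (n = 125, 95% interval of the median from order statistics 2.2 to 3.2 kb), compared to 4.2 kb (n = 117, interval 3.6 to 5.0 kb) for EZHIP peaks in regions with both. K27M peaks were 4.0 kb (n = 74, interval 3.4 to 5.2 kb) alone and 4.6 kb (n = 102, interval 3.6 to 7.0 kb) with both, and these intervals overlap. With peaks of at least 2000 bp only, the share of intergenic regions kept in EZHIP was 2.70%.

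The peaks that remained covered a small part of most kept regions. The median share of a kept intergenic region still under a peak was 18.96% in K27M (n = 162, interval 16.5 to 25.2%) and 13.9% in EZHIP (n = 204, interval 11.7 to 16.8%). It was similar in the other classes, with 19.1% and 14.5% in kept gene-body regions and 20.5% and 14.8% in kept regions with a start site. The median residual peak spanned 4.4 kb in K27M (n = 176) and 3.4 kb in EZHIP (n = 242), compared to 6.0 and 4.6 kb in regions with a start site, and the intervals of the intergenic medians (3.8 to 5.2 kb and 2.8 to 3.6 kb) lay below those of the start site regions (5.6 to 6.4 kb and 4.4 to 5.0 kb). In gene-body regions the medians were 4.8 kb (interval 3.8 to 6.0 kb) and 3.0 kb (interval 2.8 to 3.4 kb), and these intervals overlapped the intergenic ones. Regions with a start site were wider (median 32.6 kb, compared to 9.6 kb for intergenic regions). The part of region width in these peak widths was not tested. Summed over all intergenic regions, K27M peaks covered 1.17% and EZHIP peaks 1.09% of the 99.95 Mb. In regions with a start site they covered 11.2% and 8.56%. K27M peaks never lay closer to each other than 5200 bp, whereas EZHIP peaks did so down to 1200 bp, and the part of this spacing in the width differences between these lists was not tested.

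Wider intergenic regions were kept more often. Up to 5 kb, 0.741% of 1485 regions had a K27M peak and 0.539% an EZHIP peak. In regions of 50 to 100 kb the shares were 9.72% and 14.5% of 422. Since width alone gives a peak more places to fall, intergenic regions were set against the other classes within each width class. The difference from regions with a start site (intergenic minus start site) ran from -10.9 percentage points in the narrowest class to -44.3 in the widest for K27M and from -4.82 to -42.4 for EZHIP, and the Newcombe interval excluded 0 in all 5 width classes for both lists.

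**Figure D1:**
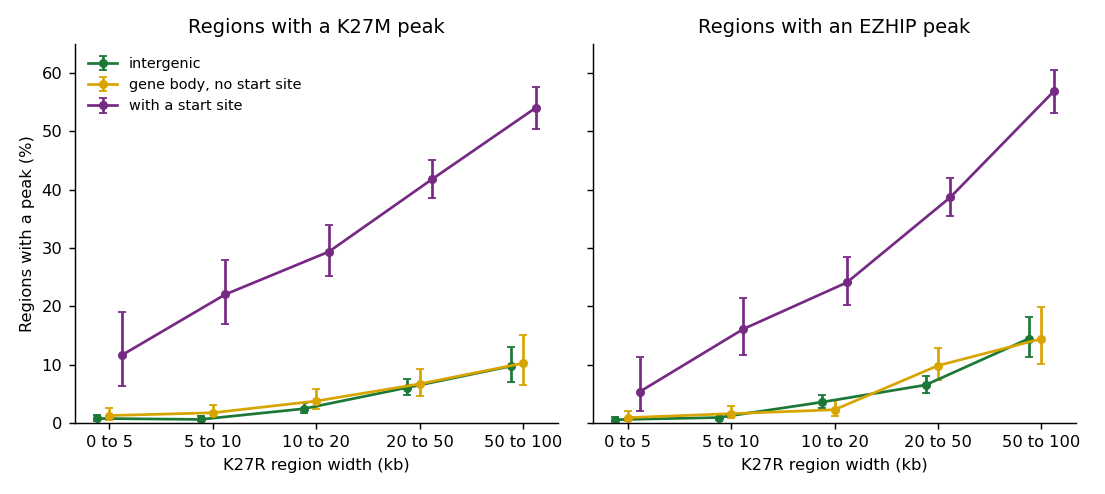
Share of K27R regions (%) that kept a K27M peak (left) or an EZHIP peak (right), by region width in kb, for intergenic regions, regions in gene bodies without a start site and regions with a start site. Points are shares and bars 95% exact intervals, with 1 library per line. Intergenic and gene-body regions run close together, from under 2% to between 9.72 and 14.5%, while regions with a start site reach 54.1% and 56.9%.

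Gene-body regions without a start site were compared next. Over all widths, 3.78% of gene-body regions had a K27M peak and 4.32% an EZHIP peak, and the difference (intergenic minus gene body) was -1.05 percentage points in K27M (interval -1.97 to -0.228) and -0.874 in EZHIP (interval -1.86 to 0.0149). With gene bodies extended by 5000 bp, the intergenic regions next to genes moved into the gene-body class and none into the regions with a start site. Against this changed class the difference was -2.60 points in K27M (interval -3.47 to -1.80) and -4.25 in EZHIP (interval -5.23 to -3.35). It is therefore not a larger difference from the gene-body regions above. Within width classes the interval excluded 0 for K27M at 5 to 10 kb (-1.14 points, interval -2.50 to -0.225) and for EZHIP at 20 to 50 kb (-3.33 points, interval -6.58 to -0.492), and included 0 in the other 8 comparisons. Gene-body regions held a single-copy island more often (7.60% compared to 3.66%). Among regions without an island the difference in K27M was 0.145 points in the other direction, with an interval of -0.513 to 0.700 that includes 0, and among regions with a single-copy island it was -0.476 points, with an interval of -9.55 to 8.49. The corresponding EZHIP differences were -0.225 (interval -1.06 to 0.506) and 2.32 points (interval -6.33 to 10.8). Among regions without an island, the only width class whose interval excluded 0 was 10 to 20 kb in EZHIP, where intergenic regions were higher by 1.95 points (interval 0.381 to 3.18). With widths pooled, regions with a start site stood above intergenic regions in both settings. Without an island they kept a peak in 10.3% (K27M) and 14.3% (EZHIP), compared to 1.59% and 2.39% of intergenic regions, and with a single-copy island in 57.6% and 51.9%, compared to 30.9% and 27.2%. Within width classes the difference (intergenic minus start site) was always negative. Without an island its interval included 0 only for EZHIP up to 5 kb (-1.37 points, interval -9.04 to 0.173). With a single-copy island it did so up to 5 kb for K27M (-7.5, interval -22.3 to 12.8) and EZHIP (-0.758, interval -12.8 to 17.5). The same held at 10 to 20 kb for EZHIP (-11.2, interval -23.5 to 5.27).

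CpG islands were sparse in intergenic regions and often repeated. An island lay in 331 of 5927 (5.58%, interval 5.01 to 6.2%), where 25.2% of all K27R regions held one. Of the 397 islands in these regions, 151 (38.04%) consisted of repeated sequence, taken as a median of at least 10 genome copies of their 24-base words, compared to 5.83% of islands in regions with a start site. This left 217 intergenic regions with a single-copy island and 114 with repeated islands only.

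Retention followed the single-copy islands. Among the 217 regions, 67 kept a K27M peak (30.9%, interval 24.8 to 37.5%) and 59 an EZHIP peak (27.2%, interval 21.4 to 33.6%). Regions with repeated islands only kept 6 of 114 in K27M (5.26%) and 11 in EZHIP (9.65%). Of the 5596 regions without an island, 89 kept K27M (1.59%, interval 1.28 to 1.95%) and 134 kept EZHIP (2.39%, interval 2.01 to 2.83%). The difference between single-copy island and no island had the same sign in all 5 width classes and its interval excluded 0 in each, except for EZHIP at 5 to 10 kb (2.54 points, interval -0.262 to 15.9). In 55 of the 67 regions that kept K27M, a K27M peak held an island itself (82.1%, interval 70.8 to 90.4%), and in 42 of 59 an EZHIP peak did (71.2%, interval 57.9 to 82.2%).

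Most regions kept in each list held no island. No island of any kind lay in 89 of the 162 regions with a K27M peak and in 134 of the 204 with an EZHIP peak. Of the 95 regions with both peaks, 49 held an island of some kind (51.6%, interval 41.1 to 62.0%). The share with a single-copy island was 47.4% among regions with both peaks (45 of 95, interval 37.0 to 57.9%), 32.8% with K27M alone (22 of 67, interval 21.8 to 45.4%), 12.8% with EZHIP alone (14 of 109, interval 7.20 to 20.6%) and 2.40% with neither. Retention also differed with CG density. By the most CG in any 300 bases, K27M was kept by 0.569% of regions with 5 to 9 CG, 2.51% with 10 to 14, 5.23% with 15 to 19 and 22.5% with at least 20. For EZHIP these shares were 1.17%, 3.77%, 7.85% and 19.8%. At 0 to 4 CG the share was 0.647% of 618 regions in both lists. Wider regions hold richer windows, and at 20 to 50 kb the K27M shares from 5 to 9 CG upward were 0.627%, 3.30%, 7.46% and 27.1%. The EZHIP shares there were 2.19%, 5.15%, 6.97% and 21.1%. At 10 to 20 kb they were 1.19%, 2.15%, 1.02% and 22% in K27M and 2.22%, 4.09%, 3.06% and 16% in EZHIP. At 5 to 10 kb they were 0.209%, 0.862%, 1.79% and 5.71% in K27M and 0.835%, 0.575%, 0% and 5.71% in EZHIP. Regions with 0 to 4 CG stood above those with 5 to 9 in both of the last width classes. Their shares were 5.41% in both lists at 10 to 20 kb (2 of 37) and 0.637% (K27M) and 1.27% (EZHIP) of 157 at 5 to 10 kb. In each of these width classes the largest step was at 20 CG or more, and the shares below it did not always rise.

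**Figure D2:**
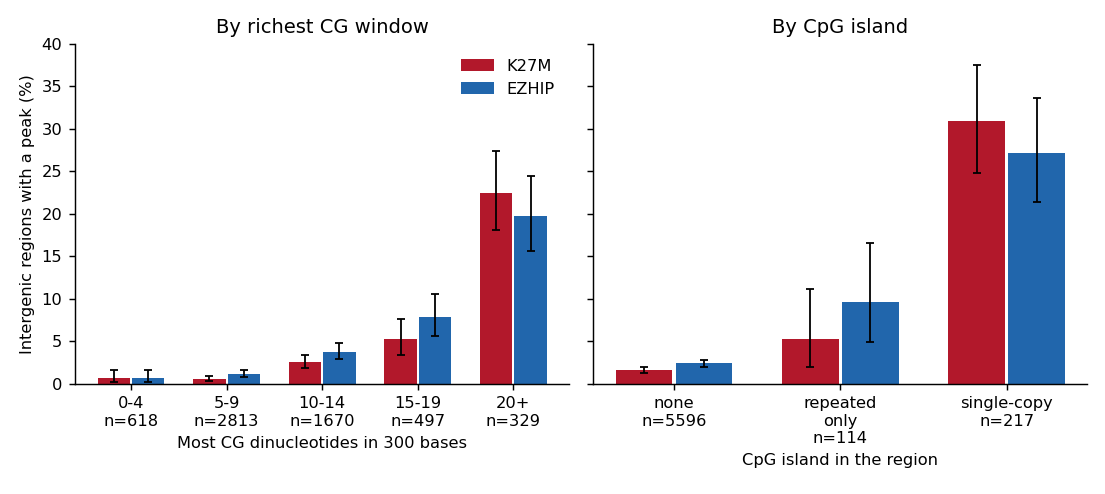
Share of intergenic regions (%) with a K27M or an EZHIP peak, by the most CG dinucleotides in any window of 300 bases (left) and by the kind of CpG island held (right); n is the number of regions. Bars are shares with 95% exact intervals. Shares are 0.647% in both lists at 0 to 4 CG, 0.569% (K27M) and 1.17% (EZHIP) at 5 to 9, and 22.5% and 19.8% at 20 or more.

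Distance to protein-coding start sites separated the lists. The median distance from the region edge to the nearest start site was 73.5 kb (interval 70.6 to 77.5 kb) for regions with neither peak, 34.4 kb (interval 17.7 to 57.8 kb) with K27M alone, 16.3 kb (interval 6.52 to 29.6 kb) with both and 5.44 kb (interval 3.43 to 14.9 kb) with EZHIP alone. Median widths, in the same order, were 9.2, 23.2, 33 and 27.6 kb, and the edge of a wider region reaches farther. The part of width in these distances and in the shares by distance was not tested. Within 5 kb of a start site lay 543 regions, of which 47 kept K27M (8.66%, interval 6.43 to 11.3%) and 86 kept EZHIP (15.8%, interval 12.9 to 19.2%). There, 13 regions had K27M alone and 52 had EZHIP alone. Farther out the lists were even, with 54 and 57 of 5384 regions. With peaks of at least 2000 bp only, the counts within 5 kb were 13 and 41, and farther out 55 and 41.

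**Figure D3:**
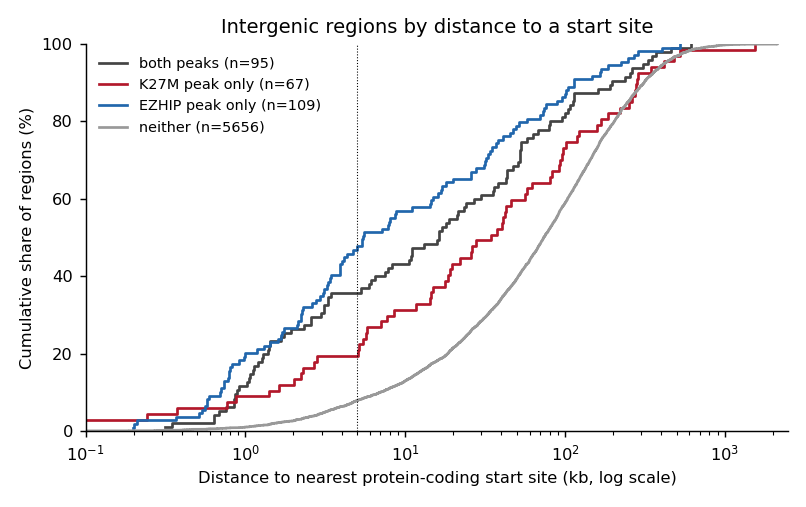
Cumulative share of intergenic regions (%) against distance to the nearest protein-coding start site (kb, log scale), for regions with both peaks, K27M alone, EZHIP alone and neither. The dotted line marks 5 kb. The curve of EZHIP alone reaches its median at 5.44 kb, that of K27M alone at 34.4 kb and that of regions with neither at 73.5 kb.

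Regions next to genes were described further, with splits chosen after the data were seen. At 541 of the 543 regions the nearest start site lay in no K27R region. This follows largely from the rule, under which no start site lies in the region itself, and from the spacing of the K27R list. The first quartile of the gap to the nearest other K27R region was 10.6 kb, so that this count is a description. Where that start site had a single-copy island within 500 bp, EZHIP remained in 74 of 388 regions (19.1%, interval 15.3 to 23.3%) and K27M in 36 (9.28%, interval 6.58 to 12.6%). Where it had none, the shares were 7.74% (12 of 155, interval 4.06 to 13.1%) and 7.10% (11 of 155, interval 3.60 to 12.3%). Regions without an island of their own showed the same order near island start sites, with EZHIP in 56 and K27M in 23 of 339. Residual peaks near start sites lay towards the gene. Their middles stood a median of 28.0% of the region width from the gene-facing edge for EZHIP (n = 109, interval 19.6 to 37.4%) and 29.9% for K27M (n = 50, interval 15.8 to 43.7%), compared to 46.3% (interval 38.1 to 52.1%) and 47.2% (interval 41.1 to 54.5%) in regions farther than 5 kb from a start site. The near and far intervals overlapped for K27M and did not for EZHIP.

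Non-coding genes were allowed by the rule and lay in 637 intergenic regions (10.7%). A start site of one lay in 442, of which 55 kept K27M (12.4%, interval 9.51 to 15.9%) and 60 kept EZHIP (13.6%, interval 10.5 to 17.1%). Without such a start site the shares were 1.95% and 2.63% of 5485. Regions with a non-coding start site were wider (median 24.4 kb compared to 9.2 kb). At 50 to 100 kb, K27M was kept by 20.6% of 97 regions with a non-coding start site and 6.46% of 325 without, and EZHIP by 26.8% and 10.8%. Up to 5 kb and at 5 to 10 kb the intervals of the shares overlapped in both lists. Among regions with a single-copy island the shares were 43.5% and 39.1% with a non-coding start site and 25% and 21.6% without, and the intervals overlapped. By biotype, 12.1% of 132 regions with the gene of a lincRNA, a long intergenic non-coding RNA, kept K27M and 9.09% kept EZHIP. The shares were 13.6% and 15.3% of 177 regions with a pseudogene and 3.85% in both lists of 52 with a snoRNA gene.

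miRNAs are short RNAs that repress messenger RNAs paired with their seed. Annotated miRNA genes lay in 48 intergenic regions, 10 of which kept K27M (20.8%, interval 10.5 to 35.0%) and 13 EZHIP (27.1%, interval 15.3 to 41.8%). Only 14 of these regions hold a gene with a miRBase-style name, the rest being predictions named after clones. Of the 14, 5 kept both peaks, 1 kept K27M alone and 8 kept neither; these loci were singled out after their values were seen. All 5 with both peaks held a single-copy island, and of the other 9 only the region of mmu-mir-2134-4 did. Mature strands of the miRNAs in the 5 regions with both peaks (RefSeq, GRCm38; seed, bases 2 to 8, in capitals) are shown to identify these loci.
miR-9-5p: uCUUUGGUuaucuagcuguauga
miR-137-3p: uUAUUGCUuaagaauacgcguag
miR-129-5p: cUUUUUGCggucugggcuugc
miR-96-5p: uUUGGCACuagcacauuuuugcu
miR-183-5p: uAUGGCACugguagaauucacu
miR-7a-5p: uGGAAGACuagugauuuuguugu
Mature strands of miRNAs in regions that kept neither peak are shown beside them.
miR-205-5p: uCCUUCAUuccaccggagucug
miR-184-3p: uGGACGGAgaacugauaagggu
miR-146a-5p: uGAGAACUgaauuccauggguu
Of 21 named miRNA genes in these regions, 19 had a mature entry, and the 37 mature strands had 36 distinct seeds.

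Mir9-2, which encodes miR-9, a regulator of neural progenitors, lay at 83878411 to 83878497 on chromosome 13 in a region of 67.0 kb (83833801 to 83900800) between Mef2c and Tmem161b. A K27M peak of 42.4 kb and an EZHIP peak of 37.4 kb covered 63.3% and 55.8% of it, the widest residual peaks of either list in any intergenic region, over 5 single-copy islands and the lincRNA genes C130071C03Rik and Gm17547. Mir137 (118136761 to 118136862 on chromosome 3), which acts in neuronal maturation, lay inside an island between Snx7 and Dpyd, under a K27M peak of 10.0 kb and an EZHIP peak of 6.6 kb in a region of 37.2 kb. Mir129-2 (94081521 to 94081610 on chromosome 2) also lay inside an island, and peaks of 10.6 kb (K27M) and 13.4 kb (EZHIP) covered 41.4% and 52.3% of its region. Mir96 and Mir183, part of a cluster needed in sensory organs, lay at the edge of a 22.0 kb region on chromosome 6 (30119201 to 30141200) between Nrf1 and Ube2h. The K27M peak of 18.8 kb, of which 18.4 kb lay in the region, included both genes. The EZHIP peak of 12.4 kb covered the island 3.4 to 3.6 kb away and left both out. Mir7-2 (86033163 to 86033259 on chromosome 7), a source of the miR-7 of brain and endocrine cells, lay under a peak of each list, with 11.8 kb of K27M and, in 2 peaks, 12.8 kb of EZHIP in a region of 40.2 kb.

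Some of the named miRNA regions that kept neither peak were wide. Mir205, an epithelial miRNA, lay in 40.6 kb on chromosome 1, Mir184 in 86.6 kb on chromosome 9 and Mir146, known from innate immune signalling, in 84.6 kb on chromosome 11, and the nearest single-copy islands were 125, 77.3 and 59.2 kb from the genes. At the imprinted Dlk1 to Dio3 cluster on chromosome 12, regions holding 6 named miRNA genes (Mir770, Mir673, Mir493, Mir379, Mir411 and Mir1197) kept neither peak, and the region of Mir341, Mir1188 and Mir370 kept a K27M peak of 2.6 kb in 42.8 kb, which covered Mir1188 alone of the 3.

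**Figure D4:**
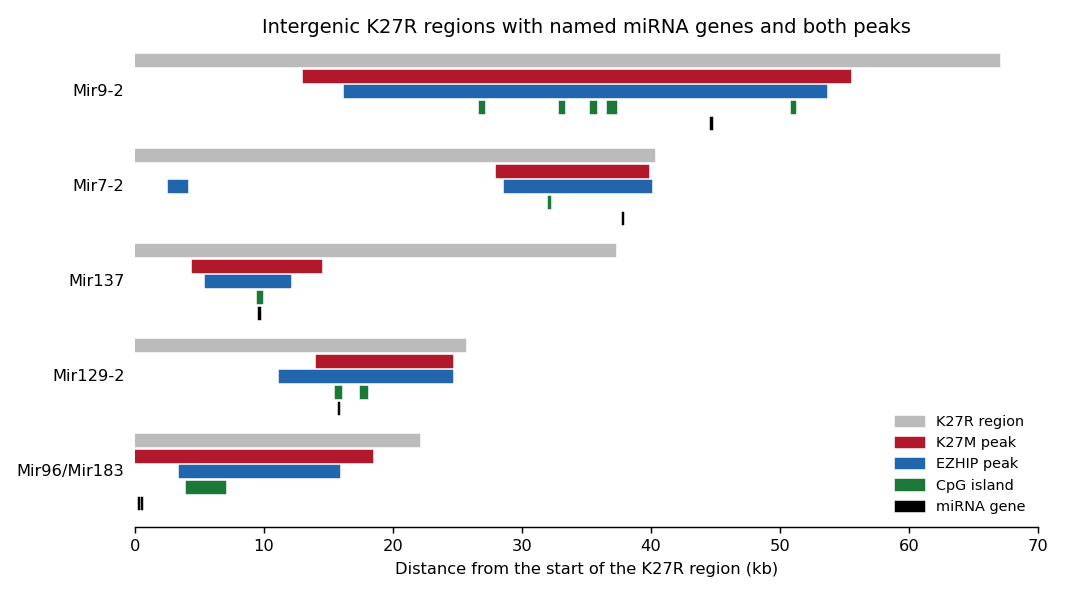
The 5 intergenic K27R regions with a named miRNA gene and both peaks, drawn to scale in kb from the start of each region: K27R region, K27M peak, EZHIP peak, single-copy CpG island and miRNA gene. All residual peaks drawn hold an island, except the shorter of the 2 EZHIP peaks in the region of Mir7-2. Mir96 and Mir183 lie under the K27M peak, of which the 18.4 kb inside the region are drawn, and outside the EZHIP peak of 12.4 kb.

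Other regions with both peaks were named for their width or cover. The widest, 98.8 kb on chromosome 11 (117236001 to 117334800) between the septin gene Sept9 and Gm11733, held 30.8 kb of K27M in 4 peaks and 14 kb of EZHIP in 2 peaks. A region of 98.0 kb on chromosome 14 (27113201 to 27211200) next to Slmap had 2.4 kb of K27M and 4.6 kb of EZHIP that shared 0.2 kb, and its single island was a repeated one. Next in width were 94.6 kb on chromosome 9 (117748601 to 117843200), between Rbms3 and Zcwpw2 and over the start of the lincRNA gene Gm16977, with 7.6 kb of K27M and 6.0 kb of EZHIP, and 93.8 kb on chromosome 2 (146586601 to 146680400), where the Gm14114 start lay under peaks of 31.0 and 15.4 kb. A region of 91.0 kb on chromosome 10 (68823201 to 68914200), between the cell cycle kinase gene Cdk1 and the ankyrin gene Ank3, had 11.2 and 8.4 kb, and one of 90.6 kb on chromosome 7 (72655601 to 72746200) had 8.0 and 6.2 kb. Among regions of at least 5000 bp, the highest shared cover was 71.4% of a 14 kb region on chromosome 10 (85380201 to 85394200), 313 bp from Prdm4, where the K27M peak (10.0 kb) and the EZHIP peak (13.2 kb) held the start of Ascl4, a bHLH factor gene. The regions of Mir96 and Mir183 and of Mir9-2 came next, at 56.4% and 55.8%.

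Some genes in these regions are classed as non-coding by GENCODE vM1 and as protein-coding by RefSeq (GRCm38), among them Ascl4, the GABA-B receptor subunit gene Kctd12 and the kelch gene Kbtbd13. By symbol, 19 intergenic regions held such a gene, and 6 of them kept K27M (31.6%), 6 EZHIP (31.6%) and 5 both (26.3%). Of the other 5908 regions, 2.64%, 3.35% and 1.52% did. A single-copy island lay in 36.8% of the regions with such a gene and in 3.55% of the others. Only 357 of 739 non-coding genes (48.3%) had a RefSeq symbol, so that 19 is a minimum and the check is void as a full count.

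Regions with only 1 of the peaks were named by their residual length. With K27M alone, the most residual length was 31.0 kb in 41.4 kb on chromosome 4 (146773001 to 146814400) between the predicted genes Gm13145 and Gm13152. A further 17.8 kb lay in 23.2 kb on the same chromosome (145698801 to 145722000). The stretch of chromosome 4 from 145427601 to 146773001, picked out after its values were seen, held 6 of the 67 regions with K27M alone, out of 8 intergenic regions starting there. With EZHIP alone, the most was 14.2 kb in 54.6 kb on chromosome 15 (8506601 to 8561200), 22.9 kb from the glutamate transporter gene Slc1a3, then 13.4 kb in 45.8 kb on chromosome 11 (60464001 to 60509800), 3.42 kb from Llgl1, and 12.2 kb in 95.8 kb on chromosome 10 (43876401 to 43972200), 16.0 kb from Atg5. EZHIP alone was found in 4 of 6 intergenic regions on chromosome 5 starting from 3905001 to 5790401, also picked out after its values were seen.

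The widest regions with neither peak were as long as the widest that kept both. They lay on chromosome 2 (11731201 to 11830800, 99.6 kb, between Ankrd16 and the integrin gene Itga8), chromosome 4 (94014201 to 94113400, 99.2 kb), chromosome 8 (35443601 to 35542800, 99.2 kb, on the side of the phosphatase gene Dusp4), chromosome 1 (186920801 to 187019800, 99.0 kb, next to Rab3gap2) and again chromosome 1 (61275601 to 61374400, 98.8 kb, between the T cell gene Icos and the polarity gene Pard3b). None of the 5 held a single-copy island, and their richest windows had 12 to 22 CG.

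The limits of the rule were inspected at both ends. Just inside 100 kb lay the region of 99.6 kb on chromosome 2 and one of 99.8 kb on chromosome 13 (73472801 to 73572600) with 2.0 kb of EZHIP and no K27M. Just outside were 2 regions of 100.4 kb, on chromosome 11 (64004201 to 64104600) and chromosome 13 (75056001 to 75156400), without a peak in either list. Of the 190 gene-free autosomal regions at or above 100 kb, 49 kept K27M and 62 kept EZHIP, compared to 162 and 204 of the 5927 under 100 kb. The width limit thus left out most residual peaks outside genes. Of 974 autosomal K27M peaks outside protein-coding genes, 65.7% lay in K27R regions at or above 100 kb and 17.9% in the intergenic regions studied here. For EZHIP the shares were 72.4% and 12.3% of 1967 peaks. The regions closest to a gene body were 2 bp from Nus1, 25 bp from 5430401F13Rik and 36 bp from Acsm3, and those that missed the rule by the least overlapped 3110043O21Rik by 24 bp, Atg7 by 52 bp and Cyp3a57 by 53 bp. None of these 6 had a residual peak.

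Genes flanking the intergenic regions were grouped by lists. The nearest protein-coding gene was a developmental transcription factor (homeobox, forkhead, Sox, T-box, Gata, bHLH and zinc finger families) for 217 regions (3.66%). Of these, 5 kept K27M (2.30%, interval 0.752 to 5.29%) and 4 kept EZHIP (1.84%, interval 0.504 to 4.65%), compared to 2.75% and 3.50% of the other 5710 regions, and the intervals overlapped. All 5 K27M regions but 1 and all EZHIP regions of this group held an island. By list, K27M and EZHIP remained in 3 and 1 of 113 regions next to homeobox genes, 0 and 0 of 50 next to forkhead, Sox, T-box and Gata genes, and 2 and 3 of 54 next to bHLH, Zic, Sall, Klf and Tfap2 genes. Neither list kept a peak in the 37 regions next to Wnt, Fgf, Bmp and Hedgehog signalling genes, which allows a share of up to 9.49%. Ion channel and neurotransmitter receptor genes had 4 and 3 of 113, cell adhesion and axon guidance genes 2 and 1 of 76, and olfactory and vomeronasal receptor genes 7 (7.53%, interval 3.08 to 14.9%) and 4 of 93 (4.30%, interval 1.18 to 10.6%).

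A few genes stood next to many intergenic regions. Of 2997 genes that were nearest to a region, 1771 were nearest to only 1. Etaa1, a replication stress gene, was nearest to 19 regions covering 272 kb, and 4930555F03Rik to 16, Ets1 to 14 and the proliferation marker gene Mki67 to 14. Among the regions of these 4 genes only 1 had a residual peak, of K27M, next to 4930555F03Rik. Olfr161, the first protein-coding gene of chromosome 16, was nearest to 14 regions, of which 3 kept K27M and 2 kept EZHIP. Zfp322a, a zinc finger gene on chromosome 13, was nearest to only 2 regions, both of which kept both peaks and held a single-copy island.

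The median gap from an intergenic region to the nearest other K27R region was 17.8 kb (quartiles 10.6 and 41.2 kb), and that neighbour was itself an intergenic region for 72.7%. Regions whose nearest neighbour was intergenic kept K27M in 2.09% and EZHIP in 2.42%. The shares were 4.74% and 6.13% beside a gene-body region, 4.36% and 5.55% beside a region with a start site, and, beside a region of at least 100 kb, 4.36% (interval 2.75 to 6.52%) and 7.13% (interval 5.04 to 9.73%). By chromosome, K27M retention ran from 0.837% on chromosome 15 to 5.70% on chromosome 4 and EZHIP retention from 1.18% on chromosome 10 to 6.84% on chromosome 17. The lists were farthest apart on chromosome 15 (2 and 11 of 239 regions), chromosome 19 (4 and 12 of 205) and chromosome 4 (17 and 9 of 298). Whether these counts reflect the chromosome or the library could not be told apart with 1 library per line.

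**Figure D5:**
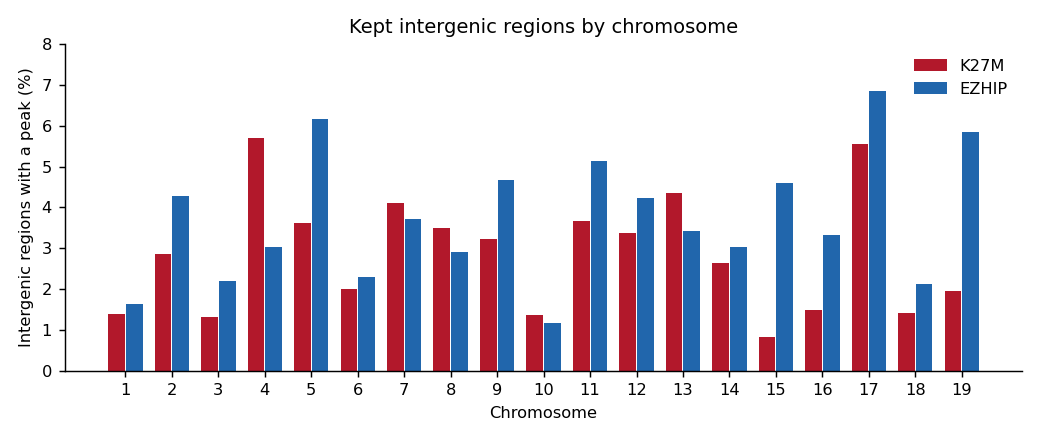
Share of intergenic regions (%) that kept a K27M or an EZHIP peak on each of the 19 autosomes, 1 library per line. Bars start at 0. K27M is highest on chromosome 4 (5.70%) and EZHIP on chromosome 17 (6.84%), and on chromosome 15 the K27M share (0.837%) is far below that of EZHIP (4.6%).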

How the data were processed

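H3K27me3 ChIP-Seq peak lists of 3 MEF libraries (K27R, K27M and EZHIP) were used, grouped by sample title, with 1 library per group. Per the labels, chromatin was digested with MNase and reads were aligned with Bowtie 1.0.0 to mm9, with dm6 as the added reference. By the study's methods, the authors called broad regions per library with MOSAiCS-HMM, which joins neighbouring bins. The deposited lists hold chromosome, start and end on a grid of 200 bp bins, with no height, p-value or count, so that depth is unknown and intervals cover counting error only. Whether spike-in scaling entered the calls is not given in the sources used here.

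NCBIM37 (mm9) sequence and GENCODE vM1 with 22350 protein-coding genes were used. CpG islands were segments scored 17 per CG and -1 per other base, over 200 bp, with at least 50% G+C and a CpG ratio above 0.6 (27075 islands). Repeated islands had a median of at least 10 genome copies of their 24-base words; this split was chosen after the data were seen. Overlap meant 1 bp. Shares have exact Clopper-Pearson intervals, differences Newcombe intervals and medians order-statistic intervals (95%). Named regions were the 5 widest with both peaks (in all, and among those with a non-coding start site) and with neither, the 3 of at least 5000 bp with most shared cover, the 3 with most length in 1 list alone, those at the limits of the rule, and the 5 genes nearest to most regions; other names were chosen after their values were seen. A region named by this rule and a window are not reported here. The regions, the 7 gene lists and the comparisons were chosen with earlier results of these data known. Python 3.11.15, numpy 2.4.6, pandas 2.3.3, scipy 1.17.1 and numba 0.67.0 were used, and the interval tools and island finder were tested on simulated data. Alternatives changed the width limits, the gene annotation, the island definition and the minimum peak width.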

Additional observations from a re-analysis of the deposited data

How the results depend on the processing

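Of 79 values recomputed under alternatives, 33 of the planned and 10 of those added after the data were seen stayed within the main interval, 29 planned and 6 added ones moved outside it, and 1 further value changed sign. One of the moved values also changed sign, that of EZHIP against gene bodies with a single-copy island. The shares with K27M, EZHIP and both peaks were 3.36%, 4.36% and 2.02% in regions of at least 5000 bp, 2.2%, 2.58% and 1.15% under 50 kb, 2.07%, 2.10% and 1.09% with gene bodies extended by 5000 bp, and 1.95%, 2.55% and 1.06% with all annotated genes left out. EZHIP was 2.70% with peaks of at least 2000 bp. The difference from start site regions was -8.71 (K27M) and -11.9 points (EZHIP) without an island and -26.7 and -24.7 with a single-copy island. The difference from gene bodies was -2.60 and -4.25 points with extended gene bodies, a class that then took in the intergenic regions next to genes. In K27M it turned to 0.145 without an island, with an interval that includes 0, and in EZHIP it turned to 2.32 with a single-copy island, with intervals that include 0 both there and over all regions. The share with an island was 1.82% for islands of at least 500 bp, 6.78% in regions of at least 5000 bp and 3.66% for single-copy islands. The gain with an island, set against all regions without an island of that kind, was 20.5 (K27M) and 18.8 points (EZHIP) for any island. It was 33.997 and 28.6 points for the longer islands and 29.2 and 24.6 for single-copy ones. Means in place of medians gave a cover of 29.2% and 21.1%, a peak width of 6.78 and 4.52 kb, and a start site distance of 123 kb, which was 80.4 kb as a median from the region middle. A transcription factor gene on either side was found for 7.96%, and a non-coding start site for 7.46%. The cause of these shifts was not tested.

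Without read counts, weak residual signal below the authors' threshold cannot be seen. No paired analysis was possible because each group is 1 library, and for the same reason leaving out a replicate could not be done. The alternative that masks repeats was not run because the reference marks none.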
